A study of Mus musculus with 16 samples.

Results

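The genotype by oligonucleotide interaction asked which genes responded differently to an antisense oligonucleotide against Dnm2 in wild-type muscle and in muscle that lacks Bin1. It was read as the contrast (KO_ASO - KO_PBS) - (WT_ASO - WT_PBS), so that a negative value marks a gene whose change with the oligonucleotide was more negative in the knockout. All 16 samples of the series entered it, 4 in each of 4 groups. WT_PBS were wild-type mice given PBS (saline), WT_ASO wild-type mice given the oligonucleotide (ASO1 in the series text), KO_PBS mice of the Bin1mck-/- line given PBS, and KO_ASO mice of that line given the oligonucleotide. All groups were male C57BL/6N mice aged 7 weeks, and RNA came from whole tibialis anterior, a muscle at the front of the lower leg. The controls of the oligonucleotide received PBS and not a control oligonucleotide, so a response to lower Dnm2 and a response to any oligonucleotide cannot be told apart here. The knockout samples come from a single line, and neither its deleted part of Bin1 nor the dose and schedule of the oligonucleotide was known here. The name of the line refers to muscle creatine kinase, whose regulatory sequence drives Cre recombinase in striated muscle fibres, so other cells of the tissue would keep Bin1.

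Dnm2 encodes dynamin 2, a GTPase that wraps around the neck of a budding membrane and cuts it. Bin1 encodes amphiphysin 2, a protein that bends membranes, binds dynamin and shapes the T-tubules, the inward folds of the fibre surface that carry the electrical signal to the calcium stores. Recessive mutations of BIN1 cause a centronuclear myopathy, a disease with weak fibres and misplaced nuclei, and lowering Dnm2 has been tried in several models of that disease group.

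The targeted RNA was examined first. Dnm2 (chromosome 9, 21424908 to 21507759, plus strand, GRCm38) measured 58.0, 53.4, 62.8 and 50.2 CPM (read counts divided by the scaled library size, in units that make libraries of different depth comparable) in WT_PBS and 24.6, 23.1, 29.4 and 25.4 in WT_ASO. It measured 63.1, 61.4, 67.7 and 59.1 CPM in KO_PBS and 24.4, 20.7, 22.8 and 31.1 in KO_ASO. Every sample given the oligonucleotide lay below every PBS sample of its genotype. Its log2 fold change (log2FC) was -1.34 ± 0.11 (SE) in the knockout and -1.13 ± 0.11 in wild type, and the interaction was -0.21 ± 0.16 with an adjusted P value of 0.636. The 95% interval of the interaction ran from -0.55 to 0.12, so the knockout may have had a Dnm2 decrease up to 0.55 larger on the log2 scale, or up to 0.12 smaller. Dnm2 overlaps Tmed1 on the other strand, and since the strand setting of the counting was not known, values of this and other overlapping genes named below are uncertain to the extent that reads were shared.

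Bin1, the deleted gene, measured 463 to 554 CPM in WT_PBS, 479 to 620 CPM in WT_ASO, 40.8 to 47.7 CPM in KO_PBS and 31.7 to 42.9 CPM in KO_ASO. The 8 knockout samples were all below the 8 wild-type samples, as their labels state. The interaction of Bin1 was -0.46 ± 0.15 (95% interval -0.78 to -0.14) with an adjusted P value of 0.192, which did not pass the threshold. Bin1 overlaps the gene A830052D11Rik on the other strand, so its values carry the same uncertainty about shared reads as those of Dnm2. Total counts per sample ran from 27591900 to 40862854, 14960 genes were tested, and the common biological coefficient of variation was 18.7%. Reads of the mature muscle fibre markers, the 12 genes of a list led by Ckm and Acta1, summed to between 90462 and 132702 CPM, so every sample had the RNA of skeletal muscle. In whole muscle, fewer cells of a type and less RNA per cell cannot be told apart.

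A gene was called at a Benjamini-Hochberg adjusted P value under 0.05 in the quasi-likelihood test of edgeR, and all adjusted P values below are from that fit unless another tool is named. The interaction called 86 genes, 0.575% of those tested. Of these, 77 (0.515%) were more negative in the knockout and 9 (0.0602%) more positive. The split by direction was 296 and 82 with DESeq2, 85 and 17 without KO_ASO 4, and 26 and 0 without KO_PBS 1. The change differed by at least 2-fold for 52 genes (0.348%). The separate effects were unequal in number too: 544 genes (3.64%) were called between KO_ASO and KO_PBS, 424 of them lower (2.83%) and 120 higher (0.802%), and a single gene (0.00668%), Dnm2 itself, between WT_ASO and WT_PBS. DESeq2 called 1056 and 33 genes in these comparisons and limma-voom 1186 in the first, and with 1 sample left out edgeR called 208 (without KO_PBS 1) to 831 (without KO_ASO 4) and 1 to 4 (4 without WT_PBS 2). At an unadjusted P value under 0.05 the interaction held 1899 genes (12.7%). The knockout effect then held 2642 (17.7%), with 10.3% of all genes lower and 7.35% higher, and the wild-type effect 965 (6.45%), with 3.14% lower and 3.32% higher.

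The number of calls depended on which samples were kept. With each sample left out in turn the interaction called between 23 genes, without WT_PBS 4, and 102 genes, without KO_ASO 4. It called 26 genes without KO_PBS 1, 31 without KO_ASO 3, 32 without WT_ASO 1, 37 without KO_ASO 1, 38 without WT_ASO 3 or without KO_PBS 2, 47 without WT_PBS 1 or without WT_PBS 2, 49 without KO_ASO 2 and 51 without KO_PBS 4. In these 16 fits none of the 86 genes changed sign, and 22 genes, all of them more negative in the knockout, were called in every fit. A single gene of the 86, AC132404.2, was called in none of the 16. WT_ASO 3 and KO_PBS 4 had the highest neutrophil marker sums of their groups, and with both left out 29 genes were called, 26 of them among the 86. WT_ASO 3 also had the lowest mitochondrial share of counts (5.57%, against 8.01 to 12.1% in the other 15 samples), the lowest TMM factor (0.891) and the highest share of counts in its 10 most abundant genes (29.1%), and the part of these in the results was not tested. All KO_PBS samples had higher TMM factors (1.060 to 1.089) than every other sample (at most 1.048), and the mitochondrial share of WT_ASO (5.57 to 9.42%) lay below that of KO_ASO (9.62 to 11.7%), whose part was not tested either. The plot of calls with each sample left out shows that most genes of the smaller sets were among the 86.

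**Figure D1:**
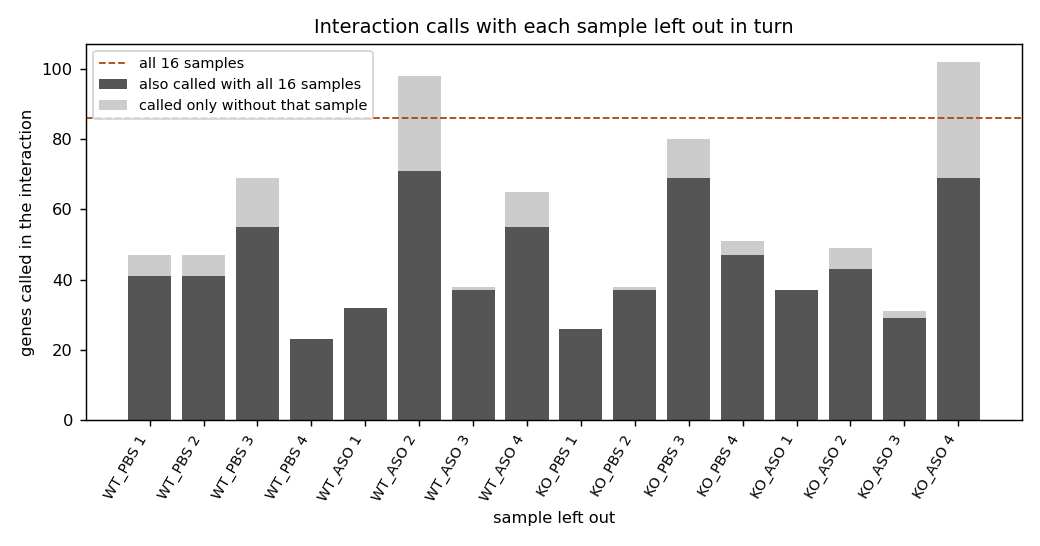
Number of genes called in the interaction when the sample on the x axis was left out, split into genes that were also called with all 16 samples (dark) and genes called only without that sample (light), with the 86 calls of all samples as a dashed line. The lowest bar is 23 genes without WT_PBS 4 and the highest 102 without KO_ASO 4.

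The knockout and wild-type effects of the oligonucleotide share no samples, so the genes of each were read in the other. The 424 genes lower in KO_ASO than in KO_PBS had a median log2FC of -0.98 in the knockout and 0.03 in wild type, where the middle 50% of them lay between -0.11 and 0.17. In wild type 241 of them were higher and 183 lower, and 30 (7.08%) had an unadjusted P value under 0.05 against 6.45% of all genes. The 120 genes higher in KO_ASO had a median of 0.56 in the knockout and 0.03 in wild type, with 68 higher, 52 lower and 17 (14.2%) at an unadjusted P value under 0.05, 13 of them higher. So the genes lowered in the knockout were, as a set, centred near no change in wild type.

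The lists were then read the other way round. Of the genes with an unadjusted P value under 0.05 in wild type, the 469 lower ones had a median log2FC of 0.05 in the knockout and the 496 higher ones a median of 0.02. Among the 469, 80 (17.1%) had an unadjusted P value under 0.05 in the knockout, and among the 496 it was 109 (21.98%), against 17.7% of all genes. In all, 189 genes had an unadjusted P value under 0.05 in both genotypes, which is 7.15% of the knockout list and 19.6% of the wild-type list. Of these, 87 moved the same way (41 lower and 46 higher in both) and 102 moved in opposite ways, 63 of them lower in the knockout and higher in wild type.

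**Figure D2:**
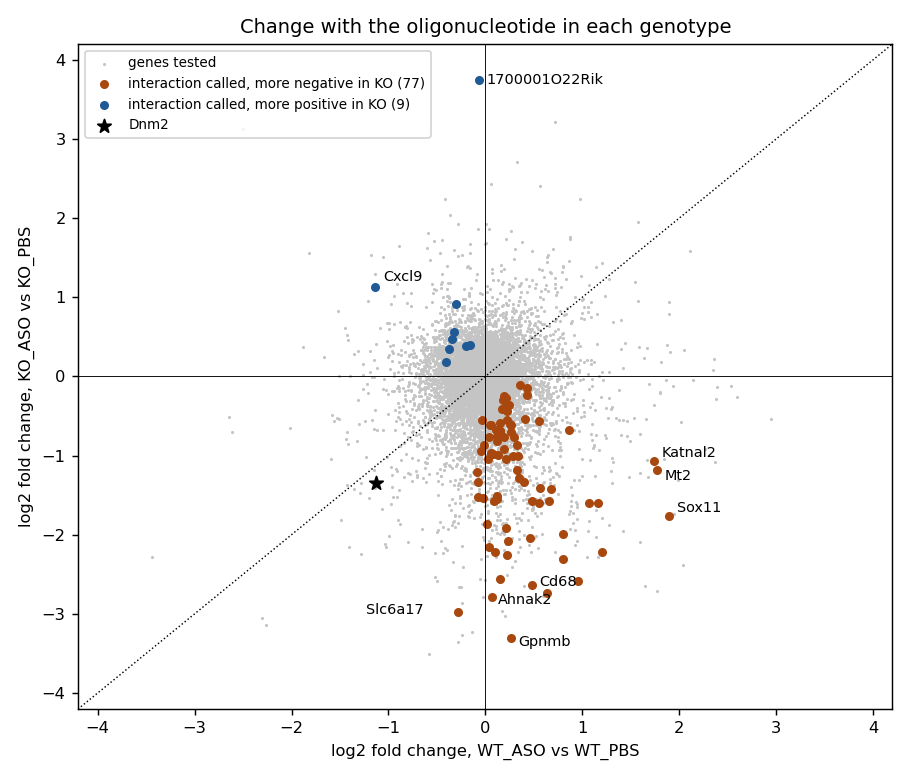
Log2FC of KO_ASO vs KO_PBS (y axis) against that of WT_ASO vs WT_PBS (x axis) for the genes tested, with the 77 genes more negative in the knockout in brown, the 9 more positive in blue, Dnm2 as a star and equal change as a dotted diagonal. Most called genes lie below the diagonal near zero on the x axis, and Dnm2 lies close to the diagonal at -1.34 and -1.13. 2 genes outside the plotted range, neither of them called, are not drawn.

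The 86 called genes were sorted by where an unadjusted P value under 0.05 was seen. In 56 it was seen in the knockout alone, in 27 in both genotypes with opposite directions, in 3 in wild type alone, and in 0 in both with the same direction. Of the 77 more negative genes 70 were also called between KO_ASO and KO_PBS and 0 between WT_ASO and WT_PBS. The knockout samples of 74 of the 77 did not overlap between treatments, where 10.4% of all genes had such a gap, and the wild-type samples of 15 did not overlap, where it was 3.22% of all genes. These comparisons share their samples with the interaction and are given as a description. For the 56 genes seen in the knockout alone the wild-type estimate was not exact: its 95% interval lay within a 2-fold change either way for 42 of them and had a median width of 0.86 on the log2 scale.

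Ahnak2 had the smallest P value of the interaction. It encodes a very large scaffold protein of the AHNAK family, whose members lie under the plasma membrane and bind annexins. Its level was 4.33, 3.65, 5.91 and 5.47 CPM in WT_PBS, 6.28, 3.59, 6.25 and 4.31 CPM in WT_ASO, 91.4, 78.9, 62.8 and 75.3 CPM in KO_PBS and 10.3, 14.5, 8.51 and 11.5 CPM in KO_ASO. The KO_PBS samples stood far above all others, and the wild-type groups overlapped. The log2FC was -2.78 ± 0.20 in the knockout and 0.07 ± 0.21 in wild type (95% interval -0.38 to 0.51), and the interaction was -2.85 ± 0.29 with an adjusted P value of 0.000494. Put the other way round, which is the same contrast, the knockout exceeded wild type by 3.98 on the log2 scale under PBS and by 1.14 under the oligonucleotide.

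Tmbim1 and Anxa4 followed, both with smaller changes and little spread. Tmbim1, a membrane protein of the endosome and lysosome, measured 52.1, 47.8, 50.7 and 42.6 CPM in WT_PBS, 52.5, 55.1, 51.8 and 51.8 CPM in WT_ASO, 128, 113, 102 and 113 CPM in KO_PBS and 55.5, 58.0, 49.1 and 65.8 CPM in KO_ASO. KO_ASO samples therefore lay in or near the wild-type range, and the interaction was -1.13 ± 0.13 (adjusted P value 0.00138). The gene overlaps Pnkd on the other strand. Anxa4, a calcium-dependent phospholipid binder of the annexin family, measured 12.6, 12.3, 13.6 and 12.6 CPM in WT_PBS, 14.4, 12.04, 13.3 and 12.6 CPM in WT_ASO, 36.8, 37.7, 33.2 and 45.8 CPM in KO_PBS and 18.8, 17.99, 16.3 and 21.01 CPM in KO_ASO. The 4 KO_ASO samples lay between the wild-type and the KO_PBS samples, and the interaction was -1.08 ± 0.14 (adjusted P value 0.00344).

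The promoters of these 3 genes are shown because they had the smallest P values of the interaction among the genes whose promoter could be shown. They are RefSeq sequences of GRCm38.p6, from 250 bases before to 50 bases after the start site, 5′ to 3′, and capitals mark the motif letters found.
Ahnak2 promoter, chr12:112795693-112795992, minus strand: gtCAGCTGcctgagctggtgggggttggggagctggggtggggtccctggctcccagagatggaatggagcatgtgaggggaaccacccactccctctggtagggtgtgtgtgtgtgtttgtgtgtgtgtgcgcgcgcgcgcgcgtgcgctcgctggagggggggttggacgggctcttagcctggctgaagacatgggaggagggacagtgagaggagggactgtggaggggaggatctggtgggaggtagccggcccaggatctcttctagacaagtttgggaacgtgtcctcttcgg
Tmbim1 promoter, chr1:74304287-74304586, minus strand: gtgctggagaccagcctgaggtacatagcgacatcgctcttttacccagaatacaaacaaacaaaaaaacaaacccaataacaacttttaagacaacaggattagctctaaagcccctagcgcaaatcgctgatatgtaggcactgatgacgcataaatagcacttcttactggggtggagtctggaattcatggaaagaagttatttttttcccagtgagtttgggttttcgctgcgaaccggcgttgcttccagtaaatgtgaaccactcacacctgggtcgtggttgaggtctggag
Anxa4 promoter, chr6:86793535-86793834, minus strand: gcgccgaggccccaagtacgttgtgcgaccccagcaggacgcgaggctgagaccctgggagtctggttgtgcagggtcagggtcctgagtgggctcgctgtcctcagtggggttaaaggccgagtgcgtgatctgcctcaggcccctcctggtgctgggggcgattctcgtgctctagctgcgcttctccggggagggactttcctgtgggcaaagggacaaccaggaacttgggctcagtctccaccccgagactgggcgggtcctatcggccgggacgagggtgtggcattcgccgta
4 motifs were searched on both strands of the promoters: CAGCTG (an E-box that myogenic factors bind), TGANTCA (AP-1), TGTGGT (Runx) and GAGGAAGT (PU.1). The Ahnak2 promoter held 1 E-box, 248 bases before the start site, and the other 2 promoters held no match. The RefSeq start of Ahnak2 lies 6915 bases from the GENCODE start and that of Tmbim1 1286 bases, so these windows may not be the promoters in use in muscle. A promoter was found for 65 of the 86 called genes and for 10908 of the 14960 genes tested. The E-box was in 15 of 65 (23.1%) against 15.3% of all tested genes with a promoter, the Runx motif in 7 (10.8%) against 12.2%, the PU.1 motif in 2 (3.08%) against 2.88%, and the AP-1 motif in 10 (15.4%) against 4.88%. These shares are descriptions and no factor was measured.

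The AP-1 matches are shown with up to 10 bases on each side, since this motif had the widest gap between the called genes and all genes; these genes were picked after their values were seen. Capitals mark the match, and each window is read along the strand of its gene.
Cd68, chr11:69666178-69666204, minus strand, 24 bases before the start site: ctgaggtgtcTGAGTCAggtttggggt
Cd68, chr11:69666303-69666329, minus strand, 149 bases before the start site: aagttccgtgTGAGTCAgctgcctcat
Gpnmb, chr6:49036516-49036542, plus strand, 8 bases after the start site: caggggcaagTGACTCAtgagcacgag
Klhl40, chr9:121777553-121777579, plus strand, 44 bases before the start site: cccccatagcTGACTCAaggctgctca
4931413K12Rik, chr11:75595012-75595038, minus strand, 228 bases before the start site: ccccaaatatTGATTCAggcatcaaga
Mvp, chr7:127014690-127014716, minus strand, 112 bases before the start site: cagttagcacTGATTCAgaaactgccc
Cxcl9, chr5:92328032-92328058, minus strand, 31 bases after the start site: tccaacacagTGACTCAatagaactca
4930512H18Rik, chr8:61910836-61910854, plus strand, 41 bases after the start site: aatggagagaTGACTCAgc
Serpinb8, chr1:107589973-107589999, plus strand, 23 bases before the start site: gtgggaagtgTGAGTCAcagagtgttc
Serpinb8, chr1:107590009-107590035, plus strand, 13 bases after the start site: cattatgttcTGAGTCAcccgacaggc
Slc6a17, chr3:107518035-107518061, minus strand, 33 bases before the start site: ggcccgcgcgTGAGTCAagcctgcgtc
Mt2, chr8:94172529-94172555, plus strand, 79 bases before the start site: aaagggggtgTGACTCAgcgcgggggg
Of these 10 genes 9 were more negative in the knockout, and Cxcl9 was more positive. They include the macrophage genes Cd68 and Gpnmb, the metallothionein Mt2 and Klhl40, a stabiliser of thin filament proteins in the sarcomere.

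Muscle surface and fetal genes formed the next group. Ncam1, the neural cell adhesion molecule that fibres display when they are denervated or regenerating, measured 8.28, 6.82, 8.27 and 8.63 CPM in WT_PBS, 7.72, 7.18, 9.26 and 7.45 CPM in WT_ASO, 46.0, 32.5, 32.2 and 42.4 CPM in KO_PBS and 13.7, 11.5, 11.1 and 16.3 CPM in KO_ASO. The wild-type groups overlapped, and KO_ASO lay between them and KO_PBS. Its log2FC was -1.54 ± 0.14 in the knockout and -0.02 ± 0.15 in wild type, and the interaction was -1.52 ± 0.20 (adjusted P value 0.00348). Sox11, a transcription factor of developing tissue, had 65 to 108 counts in KO_PBS and 18 to 25 in KO_ASO, but 1 to 3 counts in WT_PBS and 4 to 10 in WT_ASO. It thus fell in the knockout, where the ratio of summed counts per library size was 0.296 (95% interval 0.229 to 0.377), and the same ratio in wild type was 3.90 (1.75 to 9.85). These intervals cover counting error only. The interaction was -3.66 ± 0.48 (adjusted P value 0.00344).

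Sln, Des and Gadd45a were called as well, with less stable calls. Sln encodes sarcolipin, a small inhibitor of the calcium pump that is low in adult fast muscle. It measured 0.501 to 0.994 CPM in WT_PBS, 0.759 to 2.33 CPM in WT_ASO, 31.3, 14.5, 5.83 and 14.7 CPM in KO_PBS and 3.39, 3.48, 1.49 and 2.58 CPM in KO_ASO. KO_PBS 1 was the highest and KO_PBS 3 the lowest of their group, and all KO_PBS samples were above all others. The interaction was -3.55 ± 0.67 (adjusted P value 0.0314), lost without WT_PBS 1, 2 or 4, WT_ASO 1 or 4, KO_PBS 2, or KO_ASO 1 or 3 (0.0513 to 0.0896), with no filter on low counts (0.0900) and with limma-voom (0.153). Des, the intermediate filament of the Z-disc, measured 2387 to 3057 CPM in WT_PBS, 2964 to 3376 CPM in WT_ASO, 4378 to 5267 CPM in KO_PBS and 2958 to 3361 CPM in KO_ASO. Its interaction was -0.74 ± 0.14 (adjusted P value 0.0234), lost without WT_PBS 4, WT_ASO 1 or 3, KO_PBS 1 or 2, or KO_ASO 2 or 3 (0.0511 to 0.0679). Gadd45a, a growth arrest gene that rises on denervation, measured 12.2 to 20.6 CPM in WT_PBS, 20.4 to 31.6 CPM in WT_ASO, 31.6 to 41.5 CPM in KO_PBS and 19.7 to 26.8 CPM in KO_ASO. Its interaction was -1.11 ± 0.23 (adjusted P value 0.0437), with -0.56 in the knockout and 0.55 in wild type, and it was lost in 13 of the 16 fits, all but those without WT_PBS 3, WT_ASO 1 and KO_ASO 4 (0.0520 to 0.104). With WT_ASO 3 and KO_PBS 4 both left out Sln (0.0505), Des (0.0505) and Gadd45a (0.121) were not called. Des and Gadd45a overlap the genes Gm15179 and E230016M11Rik on the other strand.

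Among macrophage and lysosome genes, Cd68, a glycoprotein of the lysosome that is abundant in macrophages, measured 2.19, 1.86, 1.87 and 1.91 CPM in WT_PBS, 2.06, 1.53, 4.34 and 2.97 CPM in WT_ASO, 25.6, 17.9, 17.6 and 22.2 CPM in KO_PBS and 3.12, 2.08, 2.73 and 5.54 CPM in KO_ASO. All KO_PBS samples were well above the other 12, and WT_ASO 3 was the highest wild-type sample. The log2FC was -2.63 ± 0.29 in the knockout and 0.48 ± 0.31 in wild type, and the interaction was -3.11 ± 0.42 (adjusted P value 0.00355). Gpnmb, a glycoprotein of lipid-laden macrophages, measured 2.31, 1.56, 3.92 and 1.88 CPM in WT_PBS, 3.34, 2.08, 4.07 and 2.25 CPM in WT_ASO, 26.1, 35.7, 38.3 and 44.1 CPM in KO_PBS and 1.68, 2.36, 4.40 and 6.31 CPM in KO_ASO. Here KO_ASO samples overlapped both wild-type groups, and the interaction was -3.56 ± 0.53 (adjusted P value 0.00701).

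Hexa, a subunit of the lysosomal enzyme that breaks down gangliosides, measured 37.5, 39.1, 42.8 and 36.8 CPM in WT_PBS, 40.3, 42.8, 45.5 and 45.2 CPM in WT_ASO, 75.7, 71.4, 66.4 and 76.9 CPM in KO_PBS and 45.9, 50.6, 42.8 and 40.0 CPM in KO_ASO. KO_PBS samples were again the high ones, with an interaction of -0.85 ± 0.12 (adjusted P value 0.00355). The gene overlaps Tmem202 on the other strand. Map1lc3a, a protein of the autophagosome membrane, measured 125 to 157 CPM in WT_PBS, 144 to 192 CPM in WT_ASO, 190.4 to 233 CPM in KO_PBS and 128 to 145 CPM in KO_ASO. It had log2FC of -0.61 ± 0.10 in the knockout and 0.26 ± 0.10 in wild type (unadjusted P value 0.0191), and the interaction was -0.88 ± 0.14 (adjusted P value 0.0117). Ctsl, the lysosomal protease cathepsin L, measured 126 to 143 CPM in WT_PBS, 140.3 to 182 CPM in WT_ASO, 158 to 193 CPM in KO_PBS and 132 to 142 CPM in KO_ASO. Its interaction was -0.60 ± 0.12 (adjusted P value 0.0405). That call was kept in 3 of the 16 fits with 1 sample left out, those without WT_ASO 2, WT_ASO 4 and KO_PBS 2 (otherwise 0.0507 to 0.104), and was lost with no filter on low counts (0.0506) and with WT_ASO 3 and KO_PBS 4 both left out (0.0989).

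Genes of other roles completed the leading part of the more negative set. Rnh1, an inhibitor that binds secreted ribonucleases, measured 77.6 to 89.1 CPM in KO_PBS and 44.4 to 54.6 CPM over the other 3 groups, and its interaction was -0.81 ± 0.11 (adjusted P value 0.00369). Arfgap3, a regulator of coat proteins at the Golgi, measured 5.04 to 5.70 CPM in WT_PBS, 6.597 to 7.53 CPM in WT_ASO, 10.6 to 15.9 CPM in KO_PBS and 6.30 to 8.03 CPM in KO_ASO. It moved in opposite ways, by -0.87 ± 0.12 in the knockout and 0.33 ± 0.12 in wild type (unadjusted P value 0.0174), with an interaction of -1.20 ± 0.17 (adjusted P value 0.00531). Tnfrsf23, a decoy receptor of the TNF receptor family, measured 14.9 to 17.3 CPM in KO_PBS, 5.46 to 7.64 CPM in KO_ASO and 3.23 to 4.49 CPM over the wild-type groups, with an interaction of -1.26 ± 0.18 (adjusted P value 0.00535). Sh2d4a, an SH2 domain protein, measured 8.90 to 16.1 CPM in KO_PBS and 1.94 to 3.80 CPM over the other 12 samples, with an interaction of -2.32 ± 0.35 (adjusted P value 0.00588).

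Usp20, a deubiquitinating enzyme, measured 17.1 to 19.6 CPM in WT_PBS, 22.4 to 27.3 CPM in WT_ASO, 29.2 to 35.5 CPM in KO_PBS and 17.98 to 24.7 CPM in KO_ASO. Neither genotype overlapped between treatments, and the directions were opposite, with -0.53 ± 0.10 in the knockout, 0.41 ± 0.10 in wild type (unadjusted P value 0.000838) and an interaction of -0.94 ± 0.14 (adjusted P value 0.00588). The gene 1810058I24Rik measured 77.0 to 103 CPM in KO_PBS, 46.6 to 56.7 CPM in KO_ASO and 34.0 to 46.2 CPM over the wild-type groups, with an interaction of -0.95 ± 0.15 (adjusted P value 0.00774). Mthfd2, a mitochondrial enzyme of folate metabolism that the integrated stress response raises, measured 7.11 to 8.43 CPM in KO_PBS, 4.22 to 5.38 CPM in KO_ASO, 3.99 to 4.36 CPM in WT_ASO and 3.03 to 3.83 CPM in WT_PBS. Its interaction was -0.96 ± 0.16 (adjusted P value 0.0117). All genes of this and the preceding paragraph were called in each of the 16 fits with 1 sample left out. With WT_ASO 3 and KO_PBS 4 both left out Mthfd2 had an adjusted P value of 0.0505.

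**Figure D3:**
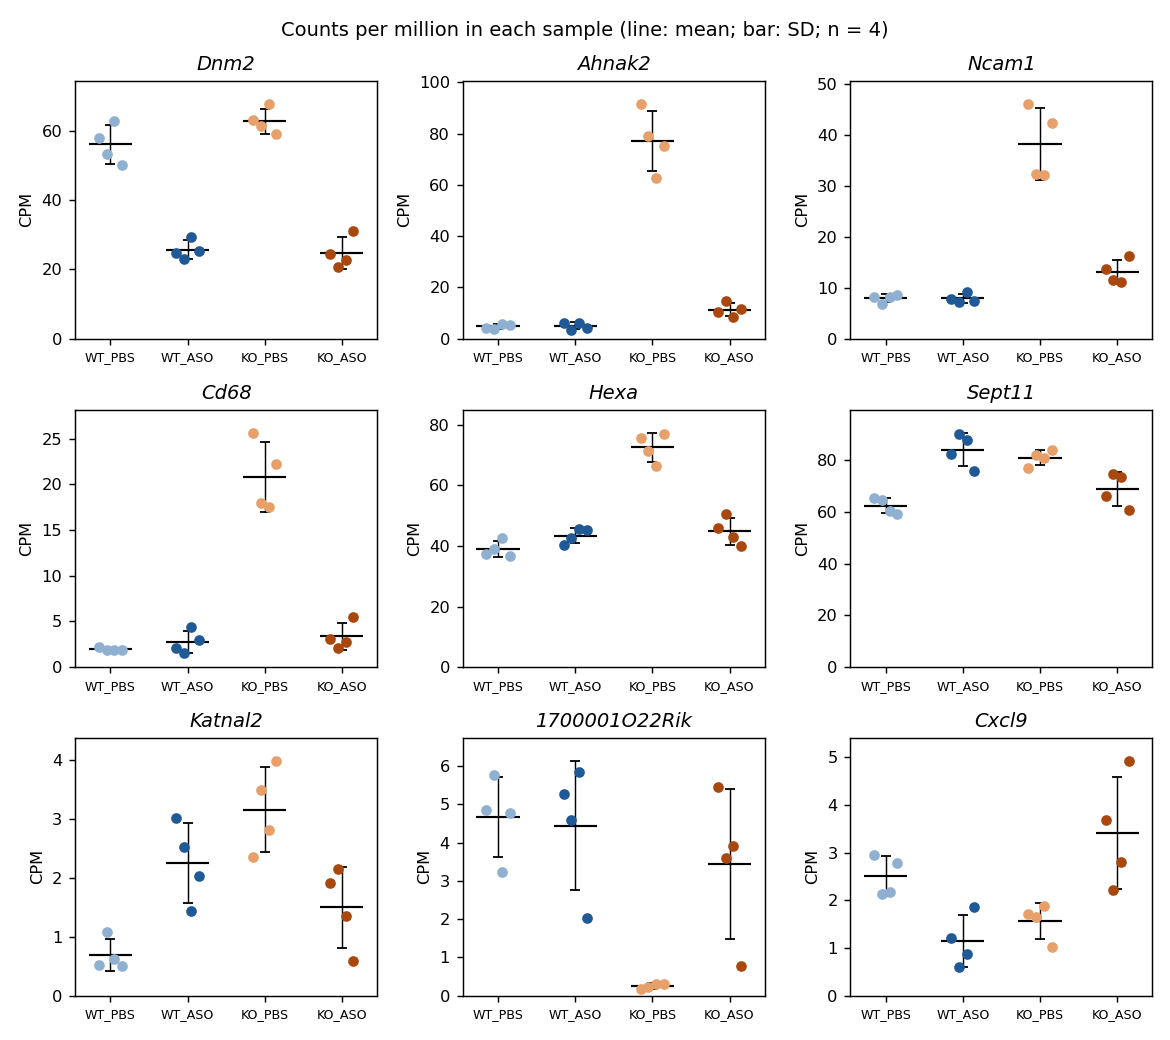
CPM of 9 genes in each of the 16 samples (points), with the mean as a line and the SD as a bar (n = 4 per group), on y axes that start at 0. Dnm2 is lower with the oligonucleotide in both genotypes. Ahnak2, Ncam1, Cd68 and Hexa are highest in KO_PBS, and Ahnak2 and Ncam1 in KO_ASO are also above all wild-type samples. Sept11 and Katnal2 are higher in WT_ASO than WT_PBS and lower in KO_ASO than KO_PBS.

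Of the 86 called genes 10 had a larger estimate of change in wild type than in the knockout, 7 of them among the more negative and 3 among the more positive. Whether the 2 sizes differed was not tested, and none of the 10 was called between WT_ASO and WT_PBS. Sept11, a septin of the cortical cytoskeleton, measured 65.5, 64.7, 60.5 and 59.4 CPM in WT_PBS, 82.6, 90.2, 88.1 and 75.7 CPM in WT_ASO, 77.2, 82.2, 80.9 and 83.9 CPM in KO_PBS and 66.3, 74.8, 73.5 and 60.8 CPM in KO_ASO. No treated sample of either genotype overlapped its PBS group, and the directions were opposite. The log2FC was 0.43 ± 0.08 in wild type (unadjusted P value 4.61e-05, adjusted 0.131) and -0.24 ± 0.08 in the knockout (adjusted 0.110), and the interaction was -0.66 ± 0.11 (adjusted P value 0.0117). It was called in all 16 fits, and had an adjusted P value of 0.0522 with WT_ASO 3 and KO_PBS 4 both left out.

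Katnal2, a relative of the microtubule-severing enzyme katanin, was low throughout, at 0.526, 1.08, 0.623 and 0.501 CPM in WT_PBS, 3.01, 2.52, 1.43 and 2.03 CPM in WT_ASO, 2.34, 3.48, 2.80 and 3.97 CPM in KO_PBS and 1.90, 2.14, 1.35 and 0.592 CPM in KO_ASO. Again each treated group stood clear of its PBS group, upward in wild type and downward in the knockout. The log2FC was 1.74 ± 0.36 in wild type (adjusted P value 0.156) and -1.06 ± 0.33 in the knockout (adjusted 0.0859), so neither was called. The interaction was -2.80 ± 0.49 (adjusted P value 0.0172), and its call was lost without WT_PBS 4 (0.0627). Mt2, a metallothionein that binds zinc, measured 5.06 to 8.45 CPM in WT_PBS, 10.6 to 29.4 CPM in WT_ASO, 29.1 to 68.8 CPM in KO_PBS and 10.2 to 42.4 CPM in KO_ASO. Its log2FC was 1.77 ± 0.43 in wild type (unadjusted P value 0.00106) and -1.19 ± 0.41 in the knockout (adjusted 0.135), with an interaction of -2.96 ± 0.59 (adjusted P value 0.0437). That call was kept in 3 of 16 fits, those without WT_ASO 4, KO_PBS 3 and KO_ASO 4 (otherwise 0.0578 to 0.0944), and was lost with no filter (0.106) and with WT_ASO 3 and KO_PBS 4 both left out (0.174). Mt2 overlaps the gene Gm45774 on the other strand.

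3 genes had an unadjusted P value under 0.05 in wild type alone. Klf7, a Krüppel-like transcription factor, measured 16.3, 17.1, 14.2 and 16.7 CPM in WT_PBS, 12.4, 12.04, 10.9 and 13.3 CPM in WT_ASO, 13.6, 14.3, 13.8 and 14.9 CPM in KO_PBS and 16.02, 16.4, 14.3 and 17.7 CPM in KO_ASO. Wild-type samples did not overlap and knockout samples did. The log2FC was -0.40 ± 0.09 in wild type (unadjusted P value 0.000292, adjusted 0.215) and 0.19 ± 0.09 in the knockout (unadjusted 0.0504, adjusted 0.284). Its place in this class thus rested on a knockout P value at the edge of the threshold. The interaction was 0.59 ± 0.12 (adjusted P value 0.0437). The call was kept without WT_PBS 3, WT_ASO 4 or KO_ASO 3 and lost in the other 13 fits (0.0605 to 0.116), with library totals alone (0.116) and with no filter (0.0980).

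The other 2, Fam214a and Cdk5rap3, are named after their values were seen. Fam214a measured 30.0 to 38.5 CPM in WT_PBS, 43.4 to 46.4 CPM in WT_ASO, 37.5 to 46.3 CPM in KO_PBS and 33.8 to 39.3 CPM in KO_ASO. Its log2FC was 0.43 ± 0.09 in wild type and -0.15 ± 0.09 in the knockout, and the interaction was -0.58 ± 0.12 (adjusted P value 0.0437), kept without WT_PBS 3, WT_ASO 2, KO_PBS 3 or KO_ASO 4 and lost in the other 12 fits (0.0676 to 0.104) and with no filter (0.0681), and had an adjusted P value of 0.133 with WT_ASO 3 and KO_PBS 4 both left out. Cdk5rap3, which codes for a part of the ufmylation machinery, measured 19.96 to 22.9 CPM in WT_PBS, 25.3 to 29.5 CPM in WT_ASO, 22.04 to 24.5 CPM in KO_PBS and 20.5 to 22.6 CPM in KO_ASO. Its log2FC was 0.35 ± 0.07 in wild type and -0.11 ± 0.07 in the knockout, and the interaction was -0.46 ± 0.10 (adjusted P value 0.0462), kept without WT_ASO 4 or KO_ASO 4 and lost in the other 14 fits (0.0553 to 0.117) and with no filter (0.149), and had an adjusted P value of 0.158 with WT_ASO 3 and KO_PBS 4 both left out. Cdk5rap3 overlaps the gene D030028A08Rik on the other strand. None of the 3 was called between WT_ASO and WT_PBS.

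Of the 9 genes more positive in the knockout 0 were called in all 16 fits, and 0 remained called with WT_ASO 3 and KO_PBS 4 both left out (adjusted P values 0.0541 to 0.158). 1700001O22Rik was close to absent in KO_PBS, at 0.165, 0.227, 0.317 and 0.296 CPM, and measured 5.46, 3.61, 3.91 and 0.766 CPM in KO_ASO. Wild-type samples held 4.85, 5.77, 3.24 and 4.79 CPM under PBS and 5.27, 4.60, 5.86 and 2.03 CPM under the oligonucleotide. In KO_ASO 3 samples lay in the wild-type range and KO_ASO 4 below it. The ratio of summed counts per library size was 14.03 in the knockout (95% interval 10.1 to 19.99, counting error only) and 0.957 in wild type (0.854 to 1.07). The interaction was 3.82 ± 0.66 (adjusted P value 0.0176), lost without KO_PBS 1 (0.0573) and with no filter (0.0540).

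Kcnc1, a fast voltage-gated potassium channel, measured 201 to 223 CPM in WT_PBS, 166 to 201 CPM in WT_ASO, 149 to 175 CPM in KO_PBS and 202 to 221 CPM in KO_ASO, with an interaction of 0.58 ± 0.11 (adjusted P value 0.0261). That call was lost without WT_PBS 1 or 4, WT_ASO 1, KO_PBS 1, 2 or 4, or KO_ASO 1, 2 or 3 (0.0519 to 0.0771). Kcnn2, a calcium-activated potassium channel of small conductance, measured 3.09 to 3.92 CPM in WT_PBS, 2.55 to 3.01 CPM in WT_ASO, 1.45 to 1.93 CPM in KO_PBS and 2.62 to 4.39 CPM in KO_ASO, with an interaction of 1.22 ± 0.24 (adjusted P value 0.0327). It was lost without WT_PBS 1, 3 or 4, WT_ASO 1 or 3, KO_PBS 1 or 4, or KO_ASO 1 or 3 (0.0529 to 0.0896). Prkce, a protein kinase C isoform, had an interaction of 0.56 ± 0.12 (adjusted P value 0.0427), with 0.40 ± 0.08 in the knockout and -0.16 ± 0.08 in wild type, and was called without WT_ASO 2 or KO_ASO 1 and in none of the other 14 fits (0.0522 to 0.104). It was also lost with library totals alone (0.0896) and with no filter (0.135).

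Pdzd2, a large PDZ domain protein, had an interaction of 0.89 ± 0.17 (adjusted P value 0.0327), with 0.56 ± 0.12 in the knockout and -0.33 ± 0.12 in wild type. It was lost without WT_PBS 2 or 4, WT_ASO 3 or 4, KO_PBS 1 or 2, or KO_ASO 1 or 3 (0.0520 to 0.0896). Lgr4, a receptor for R-spondins, had an interaction of 0.82 ± 0.18 at the edge of the threshold (adjusted P value 0.0499), lost in all fits but those without WT_PBS 1 and WT_ASO 2 (0.0555 to 0.115), with RLE scaling (0.0537), with library totals (0.0543) and with limma-voom (0.0530). Ptprb, a receptor phosphatase of blood vessel endothelium, measured 97.0 to 106 CPM in WT_PBS, 62.6 to 85.8 CPM in WT_ASO, 74.3 to 93.6 CPM in KO_PBS and 98.1 to 122 CPM in KO_ASO. Neither genotype overlapped between treatments, and the interaction was 0.72 ± 0.14 (adjusted P value 0.0359), lost with library totals (0.0859) and in 11 fits, those without WT_PBS 1, 2, 3 or 4, WT_ASO 1, KO_PBS 1, 2 or 4, or KO_ASO 1, 2 or 3 (0.0536 to 0.0896). The sum of 10 endothelial markers was 491 to 683 CPM in WT_PBS, 388 to 639 in WT_ASO, 457 to 617 in KO_PBS and 589 to 672 in KO_ASO, and its part in the value of Ptprb was not tested.

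Cxcl9, a chemokine that interferon gamma raises, measured 2.95, 2.12, 2.18 and 2.78 CPM in WT_PBS, 1.21, 0.608, 0.880 and 1.86 CPM in WT_ASO, 1.71, 1.64, 1.88 and 1.01 CPM in KO_PBS and 3.69, 2.21, 2.80 and 4.91 CPM in KO_ASO. It was lower with the oligonucleotide in all wild-type samples and higher in all knockout samples. The log2FC was -1.14 ± 0.31 in wild type (unadjusted P value 0.00220) and 1.12 ± 0.30 in the knockout (adjusted 0.0502), and the interaction was 2.26 ± 0.44 (adjusted P value 0.0314). It was lost without WT_PBS 1 or 4, WT_ASO 1 or 3, KO_PBS 1, 2 or 4, or KO_ASO 1 or 3 (0.0525 to 0.0885).

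The 34 gene lists were described by counts and medians beside all tested genes, whose median interaction was 0.00 and of which 7.47% were more negative and 5.23% more positive at an unadjusted P value under 0.05. Among the lists with at least 5 tested genes the macrophage list had the most negative median interaction. All 27 of its tested genes had a negative interaction, 4 were called (Cd68, Gpnmb, Lgals3 and Cd163) and 23 were more negative at an unadjusted P value under 0.05. Their median log2FC was -1.63 in the knockout, where 13 were called lower, 0.38 in wild type, where 0 were called, and -2.07 in the interaction. The summed level of the list was 75.9 to 114 CPM in WT_PBS, 75.1 to 160 CPM in WT_ASO, 221 to 624 CPM in KO_PBS and 84.2 to 123 CPM in KO_ASO, so every KO_PBS sample was above every other sample. Without KO_PBS 4, the highest, the median interaction was -1.48, and with WT_ASO 3 left out too it was -1.16, with 3 genes called and 16 more negative at an unadjusted P value under 0.05.

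Lgals3, galectin 3, measured 3.01 to 4.15 CPM in WT_PBS, 3.70 to 8.05 CPM in WT_ASO, 22.5 to 46.2 CPM in KO_PBS and 4.32 to 9.65 CPM in KO_ASO. Its interaction was -2.49 ± 0.44 (adjusted P value 0.0222), lost without WT_PBS 4 (0.0769) or KO_ASO 3 (0.0596) and with no filter (0.0672). Cd163, a haemoglobin scavenger receptor of resident macrophages, measured 2.75 to 5.74 CPM in WT_PBS, 4.51 to 7.83 CPM in WT_ASO, 8.07 to 17.4 CPM in KO_PBS and 2.81 to 5.82 CPM in KO_ASO. Its interaction was -2.05 ± 0.42 (adjusted P value 0.0391), kept in 5 of 16 fits, those without WT_PBS 2, WT_ASO 2, KO_PBS 2, KO_PBS 3 and KO_ASO 4 (otherwise 0.0538 to 0.104), and lost with no filter (0.0843). With WT_ASO 3 and KO_PBS 4 both left out its interaction was -1.57 (0.122). The defining markers of neutrophils were close to 0 in most samples, with a sum of 0.193 to 0.708 CPM outside WT_ASO 3 (2.03) and KO_PBS 4 (5.20). Fibroblast markers summed to 639 to 760 CPM in WT_PBS, 559 to 833 in WT_ASO, 909 to 1173 in KO_PBS and 579 to 766 in KO_ASO, and moved with the macrophage list; their part in the other results was not tested.

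**Figure D4:**
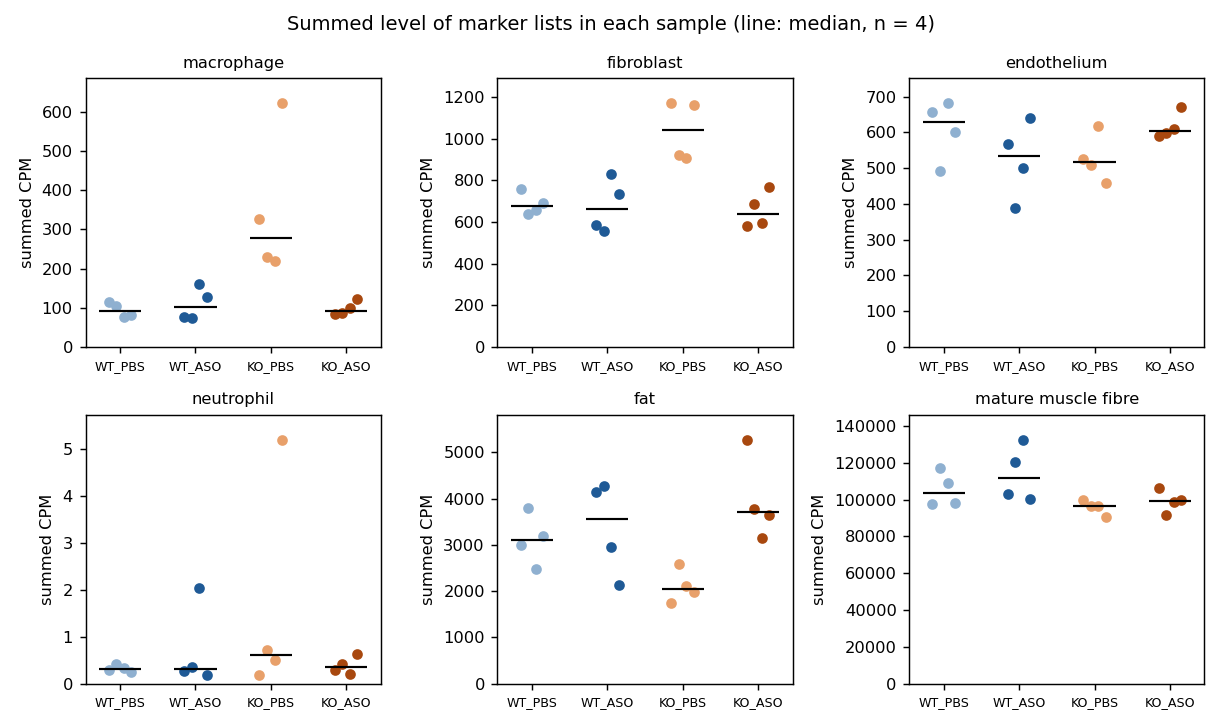
Summed CPM of 6 marker lists in each of the 16 samples, with the median of each group as a line (n = 4) and y axes from 0. Macrophage and fibroblast sums are highest in the 4 KO_PBS samples, while the neutrophil sum is led by KO_PBS 4 (5.20) and WT_ASO 3 (2.03).

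The lysosome and autophagy list held 29 tested genes, of which 27 had a negative interaction, 3 were called (Hexa, Map1lc3a and Ctsl) and 12 were more negative at an unadjusted P value under 0.05, with a median of -0.28. Its medians were -0.15 in the knockout and 0.14 in wild type. Its summed level was 3777 to 4090 CPM in WT_PBS and 4164 to 4664 CPM in WT_ASO, without overlap. In KO_PBS it was 3667 to 4575 CPM and in KO_ASO 3654 to 3999 CPM, with overlap. The membrane repair and annexin list held 21 tested genes, with 2 called (Ahnak2 and Anxa4), 13 more negative and 1 more positive at an unadjusted P value under 0.05, and medians of -0.46 in the knockout, 0.07 in wild type and -0.53 in the interaction. In the knockout 9 of them were called lower, among them Anxa1, Anxa2, Dysf, Cav3 and Cavin4, which were not called in the interaction. Their interactions were -0.80, -1.17, -0.59, -0.85 and -0.81, with adjusted P values of 0.152, 0.128, 0.0710, 0.116 and 0.0747.

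The neuromuscular junction and denervation list held 19 tested genes, of which 2 were called (Ncam1 and Gadd45a), 10 were more negative and 0 more positive at an unadjusted P value under 0.05, with a median of -0.48. The genes of the acetylcholine receptor, the ion channel of the junction, differed among themselves. Chrna1 and Chrnd had interactions of -1.35 ± 0.30 (adjusted P value 0.0570) and -2.03 ± 0.53 (0.105), while Chrne, the adult subunit, had -0.09 ± 0.17 (0.884) and Chrng, the fetal subunit, 0.13 ± 0.70 (0.961). The myogenic and fetal list held 21 tested genes with 3 called (Sox11, Sln and Des), 8 more negative and 2 more positive at an unadjusted P value under 0.05, and a median of -0.64, which was -0.36 without WT_ASO 4. Metallothioneins and zinc transporters held 12 tested genes, with Mt2 called and 5 more negative. Mt1 resembled Mt2, with 1.53 in wild type (unadjusted P value 0.000302), -0.52 in the knockout and an interaction of -2.05 ± 0.45 (adjusted P value 0.0603).

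The interferon response list held the most genes at an unadjusted P value under 0.05 on the positive side. Of its 34 tested genes 0 were called, 29 had a positive interaction, 13 were more positive and 0 more negative at an unadjusted P value under 0.05, and DESeq2 called 1 and limma-voom 0. The medians were 0.51 in the knockout, where 3 were called higher (Ifit1, Ifit3 and Ifi44), -0.06 in wild type and 0.61 in the interaction. Iigp1, an interferon-induced GTPase, had the smallest P value of the list, with 21.7 to 81.4 CPM in WT_PBS, 16.3 to 24.1 CPM in WT_ASO, 10.5 to 28.3 CPM in KO_PBS and 16.6 to 61.9 CPM in KO_ASO. The groups overlapped in both genotypes, and its interaction was 2.43 ± 0.65 (adjusted P value 0.124 in edgeR and 0.0150 in DESeq2). Ifit2 followed with 1.08 ± 0.33 (adjusted P value 0.161). Satellite cell markers had a median of 0.63 over 8 genes and endothelial markers 0.47 over 10, each with 0 called by edgeR, DESeq2 and limma-voom and with 3 and 4 genes more positive at an unadjusted P value under 0.05. The summed level of the satellite cell markers overlapped between treatments in both genotypes. It was 77.9 to 82.4 CPM in WT_PBS, 67.9 to 83.7 in WT_ASO, 68.8 to 80.3 in KO_PBS and 69.1 to 81.7 in KO_ASO.

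Collagens and matrix held 39 tested genes with 0 called, 6 more negative at an unadjusted P value under 0.05 and a median of -0.63, and DESeq2 called 2 and limma-voom 0. Timp1, an inhibitor of matrix proteases, measured 13.8 to 43.4 CPM in KO_PBS and 0.782 to 4.12 CPM over the other 12 samples, with an interaction of -2.62 ± 0.65 (adjusted P value 0.0846). Lox, which crosslinks collagen, had -1.93 ± 0.57 (0.152). In the cytoskeleton list of 24 genes, with 0 called by edgeR, 3 more negative and 1 more positive at an unadjusted P value under 0.05, 2 called by DESeq2 and 1 by limma-voom, Tubb6, a tubulin of regenerating fibres, had -1.41 ± 0.33 (0.0638). It measured 67.2 to 82.9 CPM in KO_PBS, 18.3 to 40.2 CPM in KO_ASO and 7.41 to 14.2 CPM over the wild-type groups.

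Several lists that concern the direct biology of Dnm2 and of the fibre held few or no calls. Of 25 tested genes for dynamins and membrane curvature 0 were called by edgeR, DESeq2 or limma-voom, and the median was -0.05. At an unadjusted P value under 0.05, 2 were more negative, Bin1, the deleted gene, and Bin2. Bin2 was low, at 3 to 46 counts per sample, with its highest level in KO_PBS 4. Of 25 triad and calcium handling genes Sln alone was called, with 4 more negative and 1 more positive at an unadjusted P value under 0.05. Slow fibre genes (12), fast fibre genes (14) and nuclear oxidative phosphorylation genes (33) had 0 called by each of the 3 tools and 0 at an unadjusted P value under 0.05 in either direction, with medians of 0.00, 0.06 and 0.07. The slow fibre median was -0.09 with library totals alone and ranged down to -0.42 without KO_ASO 1. The oxidative phosphorylation median was -0.01 without KO_PBS 4 and -0.02 with WT_ASO 3 left out too. In the potassium and chloride channel list of 18 genes Kcnn2 was called, 3 were more negative and 2 more positive at an unadjusted P value under 0.05, and the median of 0.03 was -0.01 with library totals. In the plot of list medians the 2 genotypes lie close together for these lists, while the fast fibre median was 0.26 in the knockout and 0.21 in wild type, both above all genes.

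**Figure D5:**
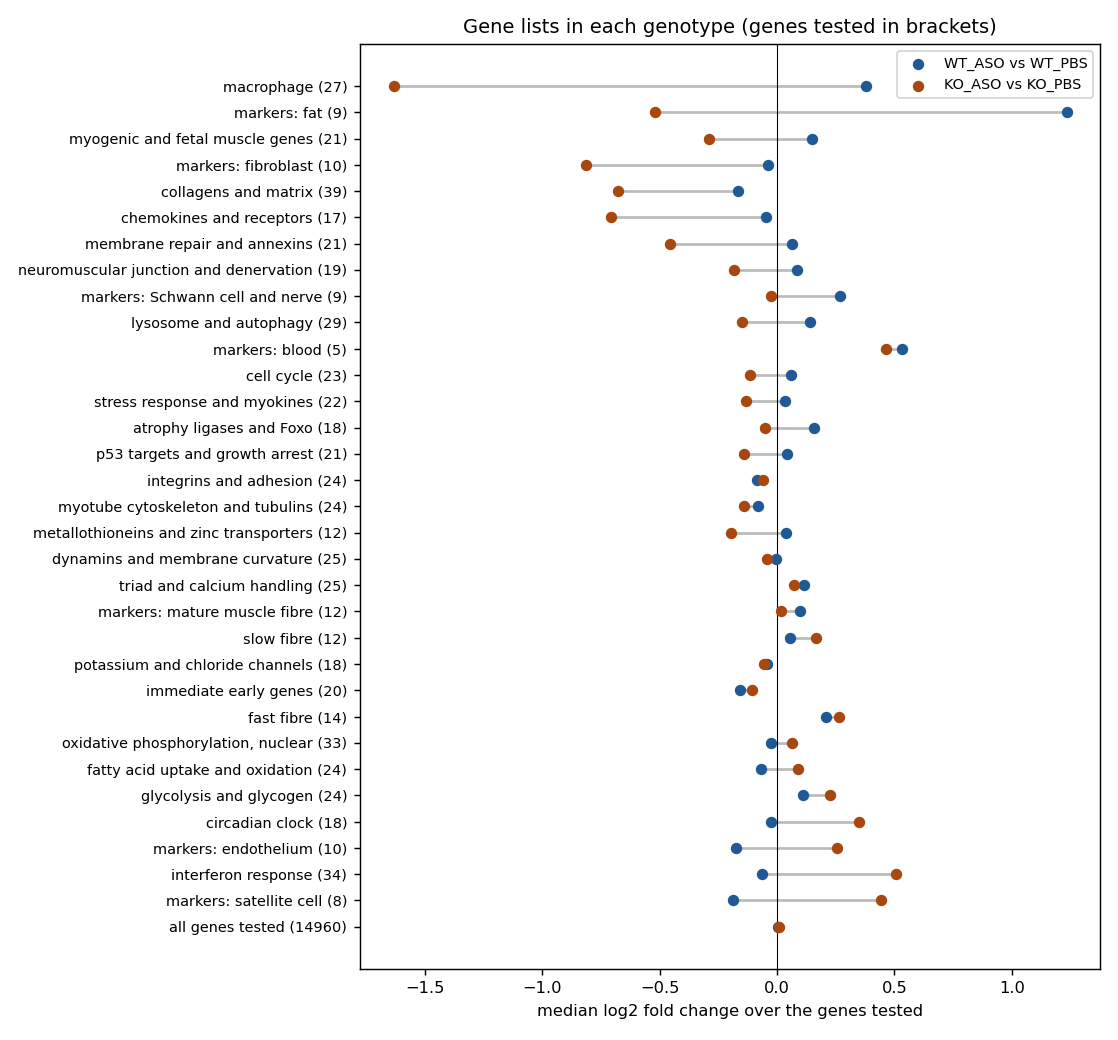
Median log2FC with the oligonucleotide in wild type (blue) and in the knockout (brown) for the gene lists with at least 5 tested genes, with the number tested in brackets and all genes at the bottom. The macrophage list spans from -1.63 in the knockout to 0.38 in wild type, and the interferon list from -0.06 in wild type to 0.51 in the knockout.

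The other lists had these counts, each more negative and more positive at an unadjusted P value under 0.05. Integrins and adhesion had 2 and 4 of 24, atrophy ligases 3 and 0 of 18, p53 targets and growth arrest 3 and 1 of 21, glycolysis 1 and 1 of 24, fatty acid use 0 and 1 of 24, cell cycle 1 and 2 of 23, immediate early genes 2 and 0 of 20, and the circadian clock 0 and 3 of 18, and edgeR called 0 in each. DESeq2 called 2, 1, 2, 1, 0, 1, 0 and 0 of them and limma-voom 0, 0, 2, 1, 0, 0, 0 and 0. Stress response and myokines had 4 and 1 of 22 with Mthfd2 called, and chemokines and receptors 5 and 2 of 17 with Cxcl9 called. The chemokine median of -0.61 was -1.04 without KO_ASO 2 and -0.12 with WT_ASO 3 and KO_PBS 4 both left out, when 0 genes of that list were more negative and 1 more positive of 16, with 0 called. Eda2r and Cdkn1a, both p53 targets, had -2.10 ± 0.49 (adjusted P value 0.0710) and -1.66 ± 0.48 (0.151). DESeq2 called both (0.00117 and 0.0183), limma-voom called Cdkn1a (0.0480), and without WT_PBS 1 Cdkn1a was called at -2.23 (0.00965). Fat markers, 9 genes with 0 called by the 3 tools, had a median of -1.86 and 1 more negative and 2 more positive gene at an unadjusted P value under 0.05, so the median and the count of single tests pointed in different directions. With WT_ASO 3 and KO_PBS 4 both left out the fat median was -0.95 and 0 genes passed the unadjusted threshold. The summed level of the fat markers was 2472 to 3800 CPM in WT_PBS, 2142 to 4268 CPM in WT_ASO, 1745 to 2579 CPM in KO_PBS and 3154 to 5278 CPM in KO_ASO, so the sum was higher in every KO_ASO sample than in every KO_PBS sample while the median log2FC of the list in the knockout was -0.52. Most of that sum was Car3, a carbonic anhydrase that muscle fibres also express, with a mean of 1294 CPM in KO_PBS and 3018 CPM in KO_ASO against 2103 and 3965 CPM for the whole list. Mature muscle fibre markers had Des called among 12, 1 further gene more negative and a median of -0.02. Blood (5), Schwann cell and nerve (9) and T, B and NK cell (1) markers had 0 called by the 3 tools and 0 at an unadjusted P value under 0.05, with medians of -0.20, -0.30 and 0.47. The 2 neutrophil markers tested were both more negative at an unadjusted P value under 0.05, with 0 called by the 3 tools and a median of -3.36. That neutrophil median was -1.90 without WT_ASO 3 and -1.55 without KO_PBS 4, while the blood median ran from -1.97 without KO_ASO 4 to 0.58 without WT_ASO 3 and was positive in 7 of the 16 fits. The Schwann cell and nerve median was 0.03 without WT_ASO 4. Fibroblast markers had 0 called by edgeR and limma-voom and 4 by DESeq2, with 6 of 10 more negative at an unadjusted P value under 0.05.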

How the data were processed

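Poly(A) RNA of 16 tibialis anterior muscles was sequenced with a stranded kit. The authors deposited a table of raw read counts per gene. Tools listed in the processing notes of the submitters are HTSeq 0.6.1p1, STAR 2.5.3a, Bowtie2 2.2.8 and cutadapt 1.10, with the mm10 build. The sources used here give neither the annotation release nor the strand setting of the counting. Each column was matched to its sample by name; the column _KO_PBS_2 was counted in KO_PBS. The table held 29730 genes, of which 14960 passed filterByExpr of edgeR 4.0.16 (R 4.3.3) and 14770 did not.

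Library sizes were adjusted with TMM factors, and counts were fitted with 1 term per group over all 16 samples by the robust quasi-likelihood test of edgeR, with Benjamini-Hochberg adjustment over all genes tested. The SE is the size of the log2FC divided by the square root of F. DESeq2 1.42.0, limma-voom (limma 3.58.1) with quality weights, RLE scaling, library totals, other filters, the replicate number as a block and each sample left out in turn were alternatives; leaving out WT_ASO 3 and KO_PBS 4 together was chosen after seeing the data. Within groups samples correlated at r of 0.974 to 0.988 and none agreed within sampling noise. The labels do not say more of how samples of a group were obtained, so P values measure the spread between these samples.

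The comparison, the gene lists and the genes were chosen with earlier results of these data known. Genes named were Bin1 and Dnm2, the 14 more negative genes of smallest P value, every more positive called gene, up to 5 called genes with the larger change in wild type, and from each list up to 4 called members or, where none was called, the 2 of smallest P value. Other genes given values (Fam214a, Cdk5rap3, Anxa1, Anxa2, Dysf, Cav3, Cavin4, the acetylcholine receptor genes, Mt1, Ifit1, Ifit3 and Ifi44) were chosen after their values were seen. Motifs were searched in the RefSeq promoters of GRCm38.p6. Coordinates are those of GENCODE M21 on GRCm38.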

Additional observations from a re-analysis of the deposited data

Results flagged for a closer look

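Each of the 79 named genes was examined in each group of 4 samples for a sample whose gap to the nearest of the others exceeded Dixon's 95% limit as a share of the group's range, which chance passes in about 1 of 20 groups. This was so in 23 of 316 groups (7.28%), with 7 in WT_ASO 3, 4 in KO_PBS 4 and 3 in KO_ASO 4. All values are CPM. In WT_PBS 1 Cd68 was 2.19 against 1.86 to 1.91 in the other 3 samples. In WT_ASO 3 Arfgap3 was 7.53 against 6.597 to 6.68, Ptprb was 62.6 against 82.7 to 85.8, Lgals3 was 8.05 against 3.70 to 3.82, Fosl1 was 0.273 against 0, S100a9 was 1.24 against 0.0327 to 0.174, Csf3r was 0.789 against 0.139 to 0.229, Vcam1 was 3.92 against 4.60 to 4.71 in the other 3 samples. In WT_PBS 4 Usp20 was 17.1 against 19.2 to 19.6 in the other 3 samples. In KO_ASO 4 Ptprb was 122 against 98.1 to 102, Hba-a2 was 38.5 against 1.85 to 5.24, Hba-a1 was 59.8 against 2.55 to 7.41 in the other 3 samples. In KO_PBS 4 Bin2 was 1.13 against 0.283 to 0.390, Lgals3 was 46.2 against 22.5 to 26.2, S100a9 was 3.33 against 0.0551 to 0.340, Csf3r was 1.87 against 0.138 to 0.368 in the other 3 samples. In KO_PBS 3 Cd36 was 369.5 against 424 to 432, Pax7 was 2.39 against 1.28 to 1.41 in the other 3 samples. In KO_PBS 1 Tubb6 was 82.9 against 67.2 to 69.2, Timp1 was 43.4 against 13.8 to 17.4 in the other 3 samples. In KO_ASO 3 Tek was 23.7 against 31.1 to 32.2 in the other 3 samples. In WT_ASO 4 Pmp22 was 50.9 against 20.8 to 23.5, Mbp was 26.2 against 10.3 to 11.03 in the other 3 samples.

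Of the named genes 34 had a response to the oligonucleotide that differed between the genotypes by the interaction test of edgeR at an adjusted P value under 0.05. The log2 interaction (knockout response minus wild-type response) was negative for 25: Ahnak2 -2.85, Tmbim1 -1.13, Anxa4 -1.08, Sox11 -3.66, Ncam1 -1.52, Hexa -0.85, Cd68 -3.11, Rnh1 -0.81, Arfgap3 -1.20, Tnfrsf23 -1.26, Sh2d4a -2.32, Usp20 -0.94, Gpnmb -3.56, 1810058I24Rik -0.95, Sept11 -0.66, Katnal2 -2.80, Gadd45a -1.11, Des -0.74, Sln -3.55, Lgals3 -2.49, Cd163 -2.05, Map1lc3a -0.88, Ctsl -0.60, Mt2 -2.96 and Mthfd2 -0.96. It was positive for 9: 1700001O22Rik 3.82, Kcnc1 0.58, Cxcl9 2.26, Pdzd2 0.89, Kcnn2 1.22, Ptprb 0.72, Prkce 0.56, Klf7 0.59 and Lgr4 0.82. The errors of the interaction and the fits in which a call was lost stand with each gene above, except the loss of Mt2 with the replicate block, given below. Levels stand there for all but Prkce, Pdzd2 and Lgr4.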

How the results depend on the processing

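The interaction called 86 genes. DESeq2 called 378, 86 of them shared, and leaving out WT_ASO 3 and KO_PBS 4 together gave 29. With 1 sample left out the count ran from 23 (without WT_PBS 4) to 102 (without KO_ASO 4). Library totals gave 87 (76 shared), limma-voom 104 (70 shared), no filter 68 (60 shared), a minimum of 10 counts in 4 samples 86 and RLE scaling 85, and 0 of the 86 genes changed sign under any of these. The count between KO_ASO and KO_PBS was 544, 1056 with DESeq2, 1186 with limma-voom, 338 with WT_ASO 3 and KO_PBS 4 both left out, and 208 (without KO_PBS 1) to 831 (without KO_ASO 4) with 1 sample left out. The count between WT_ASO and WT_PBS was 1, 33 with DESeq2, 3 with no filter, 2 with the replicate block, and 1 to 4 with 1 sample left out, the 4 without WT_PBS 2. The causes were not tested. The Dnm2 interaction ran from -0.14 to -0.34 over all alternatives and was called in none. The labels do not say that a replicate number marks a shared animal, litter or day. Deviations of same-numbered samples correlated at r of -0.0777 to 0.435 over 24 pairs (median 0.0751, against -0.0268 for other pairs), 11 of them over 0.1, and 13 of 16 samples correlated best with their own number, a hint of pairing in the data. Pairing was accepted only if every pair passed 0.1, so the fit without the block was kept. With the replicate block the interaction called 126 genes (103 more negative and 23 more positive, 75 shared) and KO_ASO against KO_PBS 752. Of the named genes the block lost Mt2 (adjusted P value 0.0532) and Fam214a (0.0503) and gained Eda2r (0.0365), Ccne2 (0.0446) and Fbln1 (0.0489). Signs turned for genes that were not called: with 1 sample left out Fosl1 ran from -4.47 to 0.32, Hba-a2 from -2.18 to 0.43 and Hba-a1 from -2.12 to 0.58, each highest without WT_ASO 3, and with WT_ASO 3 and KO_PBS 4 both left out they were 0.39, 0.64 and 0.78. The T, B and NK cell list gave no value without KO_PBS 4. Of the other values for single genes 1638 kept their direction and side of the threshold, 189 lost and 31 gained a call. Of the list medians 605 stayed within 1 SD and 6 did not, and 35 values, from 9 lists, had the other sign. In wild type the median 95% interval of the genes seen in the knockout alone spanned 0.86 on the log2 scale.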

Other observations

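The called genes were spread over most chromosomes. Chromosome 6 held 11 of the 86 (12.8%) and 5.09% of the genes tested, chromosome 7 held 9 (10.5%, against 7.69%), chromosome 8 held 7 (8.14%, against 5.37%), chromosome 14 held 6 (6.98%, against 3.47%) and chromosome 4 held 1 (1.16%, against 5.91%). These shares were read after the calls were known and are given as values.

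Red blood cell genes differed between single muscles. The summed level of the blood markers ran from 43.9 to 135 CPM in WT_PBS, 43.2 to 256 CPM in WT_ASO, 44.0 to 154 CPM in KO_PBS and 23.4 to 424 CPM in KO_ASO. The sum of Schwann cell and nerve markers was highest in WT_ASO 4, where Pmp22 and Mbp were 50.9 and 26.2 CPM, and ran from 57.8 to 185 CPM over all samples.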
